A study of Mus musculus with 6 samples.

Results

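The 9 genes described here, *Bach2*, *Tcf7*, *Lef1*, *Klf2*, *S1pr1*, *Ccr7*, *Il7r*, *Foxo1* and *Id3*, are regulators and surface receptors of resting T cells. They were chosen by name from the 52550 genes listed in each library. All 9 passed the minimum level of 10 normalized counts in at least 3 of 6 libraries, as did 17185 genes in all. Transcripts were measured by mRNA sequencing in cells labelled as splenic γδ T cells of C57BL/6 mice, in 3 libraries with DON and 3 control libraries without it. Cells of both groups were kept for 3 days on anti-CD3 and anti-CD28 coated plastic with interleukin 23 and interleukin 1β. The controls had therefore received these stimuli too, and no library was made from unstimulated cells. The labels do not spell out DON, its dose, or the age or number of the mice.

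A T cell that is not responding to antigen is held in a quiescent state by a small set of transcription factors. FOXO1, which is kept out of the nucleus when growth factor and antigen signals activate AKT, switches on *Klf2*, *Il7r* and *Ccr7* in T cells. KLF2 in turn activates *S1pr1*, whose product lets T cells leave lymphoid organs. BACH2 represses effector genes at sites that AP-1 factors can also bind, and TCF-1 (from *Tcf7*) and LEF1 support naive and long-lived T cells. ID3 binds E proteins and blocks their binding to DNA.

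*Bach2* fell and *Klf2* rose with DON, and the other 7 genes did not pass the threshold. DNA before an annotated start site is shown for these 2 genes, since they carried the called changes. Each window is the 250 bases before a RefSeq start site on GRCm38.p6, plus strand, at chr4:32417185-32417434 for *Bach2* and chr8:72318812-72319061 for *Klf2*. Capitals mark the only match in each window to the 5 motifs searched.
Bach2: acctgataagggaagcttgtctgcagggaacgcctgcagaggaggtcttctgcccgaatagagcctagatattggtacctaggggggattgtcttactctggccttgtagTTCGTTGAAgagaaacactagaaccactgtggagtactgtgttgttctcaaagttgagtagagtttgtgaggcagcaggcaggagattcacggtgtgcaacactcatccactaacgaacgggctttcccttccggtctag
Klf2: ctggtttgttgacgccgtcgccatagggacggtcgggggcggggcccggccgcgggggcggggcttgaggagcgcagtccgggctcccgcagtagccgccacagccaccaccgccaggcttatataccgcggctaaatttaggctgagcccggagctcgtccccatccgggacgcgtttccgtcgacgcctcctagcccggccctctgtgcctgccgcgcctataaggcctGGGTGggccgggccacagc
The *Bach2* start site lies inside the gene as the files draw it, from 32238804, and directly before an exon. The window is therefore not the sequence before the gene's outermost start, and it may be intron sequence. Its capitals match the STAT letters TTCNNNGAA, beginning 140 bases before the start site. The *Klf2* capitals, beginning 19 bases before the start site, are the reverse complement of the KLF letters CACCC. They too lie inside the gene as the files draw it, since the files start *Klf2* at 72319033, before the end of the window.

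RefSeq windows were matched for 7 of the 9 genes, 11 windows in all, and both strands were searched. CACCC was also found before *Tcf7*, *Lef1* and *Id3*, and the STAT letters also before *Il7r*. Among all 32851 mouse windows of that length, 52% held CACCC and 7.02% held TTCNNNGAA. The FOXO letters GTAAACA (3.17% of all windows), the BACH and AP-1 letters TGACTCA (4.46%) and the TCF and LEF letters CTTTGAT (3.21%) were in none of the 11 windows. A match describes letters only, and no match says nothing of whether a factor binds elsewhere.

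Library totals were 35717703 to 40840099 recovered units with DON and 33715873 to 37888926 in controls, where a unit is the smallest step of a library's values. Markers of other cells were present. The αβ receptor gene *Trac* averaged 352 ± 29.9 units per kilobase of exon, scaled to 1000000 units per library, with DON and 315 ± 3.58 in controls, while the γδ gene *Trdc* averaged 31.5 ± 1.53 and 31.9 ± 0.937 (SD, n = 3 each). None of the 6 markers listed for γδ T cells was called by limma, but they did not move alike. *Tcrg-C1*, *Tcrg-C2* and *Tcrg-C4* changed by log2 -0.37, -0.47 and -0.62, and *Cd3e* and *Cd3g* by 0.23 and 0.30. The groups did not overlap for *Tcrg-C4*, *Cd3e* and *Cd3g*. DESeq2 on recovered units called 2 of the 6 higher and 1 lower. Limma called 14 of 15 B cell markers lower with DON, with summed levels of 51260.0 to 58074.6 normalized counts in DON libraries and 75234.1 to 78670.6 in control libraries. Without control library 1, 2 or 3, it called 7, 8 or 7 of them lower. Summed neutrophil markers were 2423.4 to 2869.3 with DON and 11269.4 to 11947.0 in controls, with 7 of 9 called lower. Of 10 macrophage markers, 6 were called higher and 1 lower. With 1 library left out, 4 to 7 were called higher, and the lower call was lost without DON library 3 or any 1 control library. In bulk libraries, fewer cells of a type and less RNA per cell cannot be told apart.

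Of the 9 genes, 1 was called higher (*Klf2*), against a background of 2.3% of all genes tested, and 1 lower (*Bach2*), against 4.15%. In 4 genes every DON library stood above every control library, a pattern found in 15.7% of all genes tested. In 3 genes every DON library stood below every control library, which held for 15.7% of all genes as well. The groups overlapped for *Foxo1* and *Id3*. The median log2 change of the 9 genes was 0.11, beside 0.00 for all genes tested. A call here means a Benjamini-Hochberg adjusted p under 0.05 in limma over 17185 genes. Since no label states that libraries came from separate mice or cultures, the p-values rest on the spread among the deposited libraries, and that spread may be technical.

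**Figure D1:**
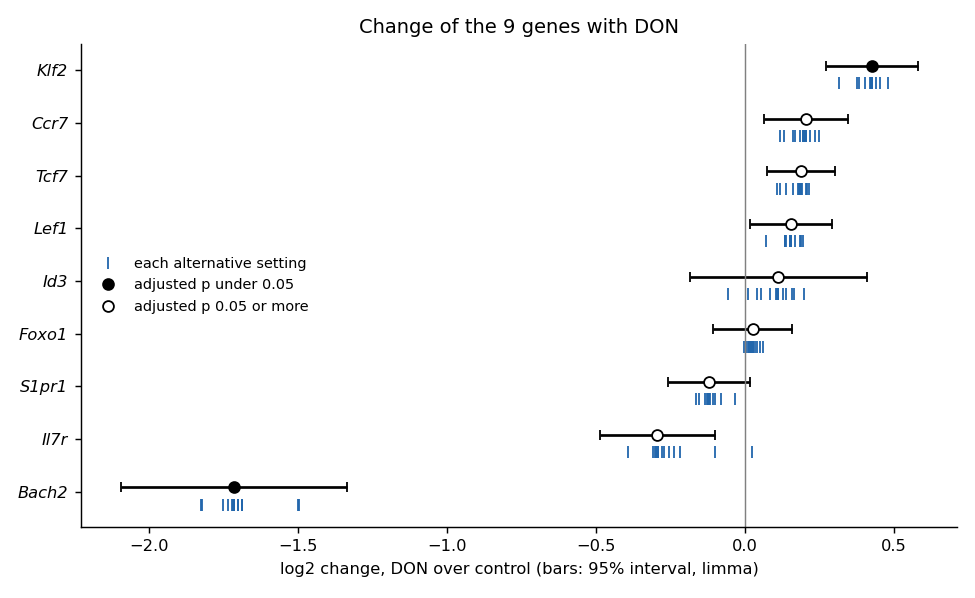
Log2 change (DON over control, log2(normalized count + 1) scale) of the 9 genes with 95% confidence intervals from limma. Filled points mark an adjusted p under 0.05, and ticks give the change under each alternative setting of the processing. *Bach2* stands at -1.72 and *Klf2* at 0.43, and the intervals of *S1pr1*, *Foxo1* and *Id3* include 0.

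*Bach2* (ENSMUSG00000040270.16, chromosome 4, 32238804 to 32586108, plus strand) encodes a transcriptional repressor of the BTB and basic leucine zipper family. It had 4409.8, 2814.9 and 4389.9 normalized counts in DON libraries 1 to 3, against 12150.2, 12325.4 and 12914.0 in control libraries 1 to 3. The control libraries lay close together, and the highest DON library was far below the lowest of them. The means were 3872 ± 915 with DON and 12463 ± 400.1 in controls (SD, n = 3 each), so that the DON libraries averaged 31.1% of the control level. The log2 change was -1.72 (95% confidence interval -2.10 to -1.34, limma adjusted p = 0.00182). Among all 17185 genes tested, 468 were lower by at least as much, *Bach2* included. Among the 6474 genes with a mean of at least 1000 normalized counts, 26 were.

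As given above, 14 of 15 B cell markers also fell, or 7 or 8 without any 1 control library. None of the 15 was listed at 0, and B cells are known to express *Bach2*. *Ms4a1*, which encodes CD20, had 1404.9, 1080.1 and 1249.2 normalized counts with DON and 3391.2, 3419.3 and 3792.3 in controls (log2 -1.51, limma adjusted p = 0.000609). The log2 change of *Pax5*, the B cell identity factor, was -1.11 (adjusted p = 0.000967), and that of *Cd79a*, a B cell receptor subunit, was -0.57 (adjusted p = 0.0121). The *Cd79a* call was lost without any single control library. The median log2 change of the 15 B cell markers was -0.91. The part of B cells in the *Bach2* result was not tested.

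The antisense gene *Bach2os* shares 537 exon bases with *Bach2*, and the sources used here do not say whether counting used strand. It had 459.1, 436.2 and 543.0 normalized counts with DON and 488.8, 433.5 and 434.8 in controls, so its groups overlapped. *Bach1*, the closest relative of *Bach2* and a heme-regulated repressor, had 2648.2, 3225.2 and 3241.0 with DON and 2701.0, 3311.8 and 3146.2 in controls. The groups overlapped, at log2 -0.01 (limma adjusted p = 0.974, interval -0.27 to 0.25). Per kilobase of exon, *Bach2* stood at 0.807 ± 0.248 times *Bach1* with DON and 2.55 ± 0.241 times *Bach1* in controls (SD, n = 3 each).

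Of 13 genes for BACH2 relatives, small MAF partners, AP-1 factors and known targets, 2 fell and 11 were not called, with a median log2 change of 0.07. Without DON library 1, limma called 1 higher and 2 lower, and without DON library 3 or any 1 control library 1 was called lower. *Irf4*, a factor that drives effector differentiation together with BATF and JUN proteins, had 1670.8, 1502.9 and 1605.8 normalized counts with DON and 2674.6, 2383.4 and 2262.2 in controls (log2 -0.61, limma adjusted p = 0.0106). *Junb*, an AP-1 subunit, changed by -0.32 (adjusted p = 0.0391). That call was lost without DON library 2, without DON library 3 or without any 1 control library. *Prdm1*, the BLIMP-1 gene that BACH2 represses in B and T cells, had 702.0, 990.0 and 767.9 with DON and 1083.1, 1202.7 and 1244.9 in controls. Its groups did not overlap, but it did not pass the threshold (log2 -0.53, adjusted p = 0.0631).

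The 5 genes nearest to *Bach2* in pattern over the 6 libraries were sought among 12033 genes with a mean of at least 100 normalized counts, by the root mean square difference of centred log2 values. They were *Gm45871* (0.122), *Mylk* (0.151), *Jchain* (0.152), *Ms4a1* (0.164) and *Uhrf1* (0.197). *Mylk* encodes myosin light chain kinase, *Jchain* the joining chain of secreted antibodies, and *Uhrf1* a factor that maintains DNA methylation in dividing cells. Likeness here is a description of 6 libraries in which both groups differ.

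**Figure D2:**
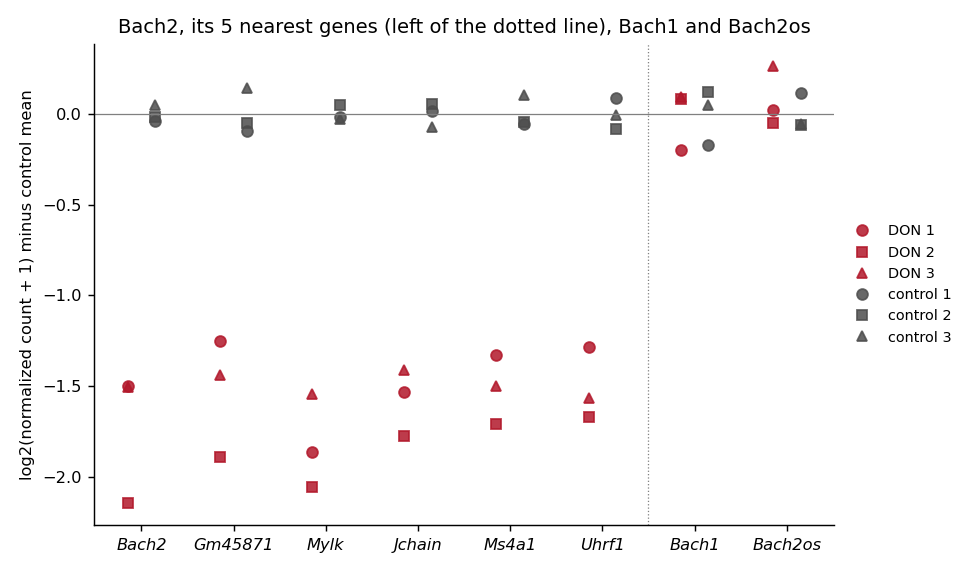
Level of *Bach2*, its 5 nearest genes, *Bach1* and *Bach2os* in each library, as log2(normalized count + 1) minus the control mean, with DON libraries in red left of control libraries in grey. The DON libraries of the first 6 genes lie well below the controls, while those of *Bach1* and *Bach2os* overlap them.

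*Foxo1* (ENSMUSG00000044167.6, chromosome 3, 52268336 to 52353221, plus strand) had 10648.1, 10922.6 and 10747.2 normalized counts with DON, against 11126.7, 10243.7 and 10405.7 in controls. The 3 DON libraries fell within the range of the controls. The log2 change was 0.03 (limma adjusted p = 0.819, interval -0.11 to 0.16). Its antisense partner *Gm20402*, which shares 674 exon bases, had 1200.2, 1613.5 and 1734.5 with DON and 1133.0, 1188.4 and 1532.1 in controls. *Foxo3*, a related factor, averaged 5522 ± 300.3 with DON and 5467 ± 132 in controls (log2 0.01, adjusted p = 0.921).

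Of 23 tested genes of the FOXO pathway, 2 fell and 21 were not called, with a median log2 change of 0.02. Without DON library 1, limma called 2 higher and 5 lower. Without DON library 3, 1 of the 2 calls was kept, and both were lost without DON library 2 or any 1 control library. *Irs2*, an insulin receptor substrate that FOXO factors induce in liver, had 2900.6, 2878.3 and 3129.5 normalized counts with DON and 3850.6, 3887.9 and 3896.9 in controls (log2 -0.39, limma adjusted p = 0.0187).

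*Klf2* (ENSMUSG00000055148.7, chromosome 8, 72319033 to 72321656, plus strand) encodes a zinc finger factor that keeps T cells quiescent and able to recirculate. It had 29479.8, 34189.5 and 32059.3 normalized counts in DON libraries 1 to 3, against 23573.0, 22981.7 and 24630.3 in control libraries 1 to 3. All DON libraries were above all controls. The means were 31909.5 ± 2358 with DON and 23728 ± 835 in controls (SD, n = 3 each), which puts DON at 134.5% of the control level. The log2 change was 0.43 (limma adjusted p = 0.0133, interval 0.27 to 0.58). The call was lost without DON library 3 (adjusted p = 0.0557) and without control library 1, 2 or 3 (0.0636, 0.0684 and 0.0520). Over 19 alternatives the change stayed between 0.31 and 0.48, with adjusted p under 0.05 in 12 of them.

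**Figure D3:**
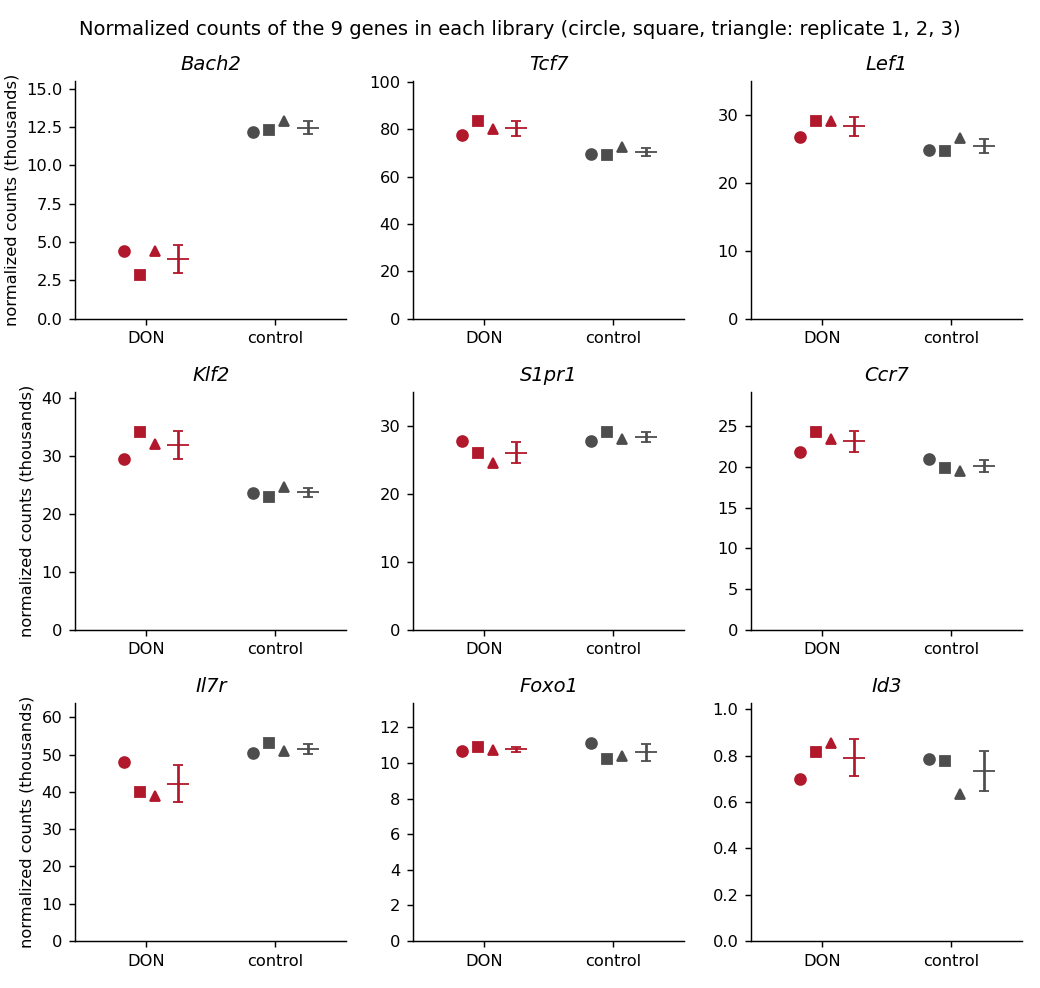
Normalized counts of each of the 9 genes in the 3 DON libraries (left, red) and the 3 control libraries (right, grey), with the mean and SD of each group. The *Bach2* means are 3872 with DON and 12463 in controls, and the groups overlap for *Foxo1* and *Id3*.

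*S1pr1* (ENSMUSG00000045092.8, chromosome 3, 115710433 to 115715072, minus strand) encodes the sphingosine 1-phosphate receptor of lymphocyte egress. It had 27767.0, 25991.8 and 24637.1 normalized counts with DON, against 27881.2, 29189.4 and 28137.5 in controls. DON library 1 lay just under the lowest control, and the other DON libraries further below. The log2 change was -0.12 (limma adjusted p = 0.243, interval -0.26 to 0.02). *S1pr4*, a second receptor for the same lipid, had 9156.2, 9260.9 and 9525.4 with DON and 8745.3, 8315.7 and 8084.0 in controls (log2 0.15, adjusted p = 0.149).

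*Ccr7* (ENSMUSG00000037944.8, chromosome 11, 99144196 to 99155077, minus strand) encodes the chemokine receptor that brings naive T cells into lymph nodes. It had 21798.3, 24326.5 and 23383.9 normalized counts with DON, against 20950.2, 19853.2 and 19536.7 in controls. The groups did not overlap, and DON library 1 was nearest to the controls. The log2 change was 0.20 (limma adjusted p = 0.0875, interval 0.06 to 0.34).

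Of 26 tested genes of egress and homing, 2 rose, 2 fell and 22 were not called, with a median log2 change of -0.05. *Cxcr4*, a receptor for the chemokine CXCL12, had 3639.0, 3945.0 and 3837.7 normalized counts with DON and 3154.6, 3091.2 and 2919.6 in controls (log2 0.32, limma adjusted p = 0.0391). The integrin subunit gene *Itgb7*, whose product takes part in homing to the gut, also rose (log2 0.28, adjusted p = 0.0459). *Sphk1*, a kinase that makes sphingosine 1-phosphate, had 52.6, 66.9 and 62.8 with DON and 166.2, 119.6 and 133.3 in controls (log2 -1.18, adjusted p = 0.0250). *Cxcr5*, a homing receptor of B cell follicles, fell (log2 -0.40, adjusted p = 0.0406). These 4 calls were lost without DON library 2, DON library 3 or any 1 control library, while without DON library 1 limma called 5 of the 26 higher and 6 lower. *Cd69*, whose product holds S1PR1 inside the cell, had 1720.5, 1241.6 and 1276.5 with DON and 2096.9, 1789.8 and 1715.6 in controls, with overlap (log2 -0.41, adjusted p = 0.123).

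*Il7r* (ENSMUSG00000003882.4, chromosome 15, 9506161 to 9529876, minus strand as the files list it) encodes the α chain of the interleukin 7 receptor, a survival receptor of resting T cells. It had 48078.2, 39885.4 and 38796.6 normalized counts with DON, against 50577.3, 53173.1 and 51132.1 in controls. All DON libraries were below all controls, with DON library 1 close to them. The log2 change was -0.30 (limma adjusted p = 0.0756, interval -0.49 to -0.10), short of the threshold. Without DON library 1 the adjusted p was 0.000556, and with DESeq2 on recovered units it was 0.0464. After correction for transcript GC content the change was 0.022 (adjusted p = 0.763). The *Il7r* transcript has 40.5% GC, at percentile 8.15 of the genes tested, while that of *Klf2*, with 61.6%, is at percentile 97.9. After the same correction *Klf2* was still called higher, at log2 0.38 (limma adjusted p = 0.00235).

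Of 17 tested genes of interleukin 7 and common γ chain signalling, 1 rose, 2 fell and 14 were not called, with a median log2 change of -0.05. *Il2rg*, the common γ chain that pairs with IL7R, had 29057.1, 34293.0 and 32961.0 normalized counts with DON and 25761.8, 24825.3 and 24650.8 in controls (log2 0.35, limma adjusted p = 0.0292). *Il2ra*, the α chain of the interleukin 2 receptor and a gene of activated T cells, had 3060.4, 2770.3 and 3147.8 with DON and 8107.0, 7814.2 and 7497.4 in controls (log2 -1.38, adjusted p = 0.000143). *Cish*, a STAT5-induced inhibitor of cytokine signalling, had 746.0, 376.4 and 796.3 with DON and 2105.7, 1762.3 and 1091.1 in controls (log2 -1.39, adjusted p = 0.0487). Of these, *Il2ra* passed under all 19 alternatives. The *Il2rg* and *Cish* calls were lost without DON library 2, DON library 3 or any 1 control library, while without DON library 1 limma called 2 of the 17 higher and 4 lower. Of the 19 alternatives, 10 called *Il2rg* and 7 called *Cish*. With all libraries kept, the *Cish* call was lost with pseudocount 0.1, TMM scaling and edgeR on recovered units, among others. Per kilobase of exon, *Il7r* stood at 0.682 ± 0.143 times *Il2rg* with DON and 1.05 ± 0.0462 times *Il2rg* in controls (SD, n = 3 each).

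*Tcf7* (ENSMUSG00000000782.15, chromosome 11, 52252371 to 52283014, minus strand) encodes TCF-1, a factor of T cell identity and self-renewal. It had 77559.9, 83649.8 and 79929.4 normalized counts with DON, against 69762.1, 69341.4 and 72458.2 in controls. The groups did not overlap, yet the change was small, at log2 0.19 (interval 0.07 to 0.30, limma adjusted p = 0.0620). *Lef1* (ENSMUSG00000027985.14, chromosome 3, 131110471 to 131224356, plus strand), a factor of the same family, had 26755.2, 29110.0 and 29217.5 with DON and 24915.2, 24806.6 and 26708.9 in controls. DON library 1 was only just above the highest control (log2 0.15, interval 0.02 to 0.29, adjusted p = 0.155). The antisense gene *Gm43352* shares 1208 exon bases with *Lef1* and had 4287.4, 4709.4 and 5090.9 with DON and 5071.6, 5188.3 and 5298.7 in controls. Per kilobase of exon, *Tcf7* stood at 9.50 ± 0.294 times *Lef1* with DON and 9.27 ± 0.164 times *Lef1* in controls (SD, n = 3 each).

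Limma called none of 17 tested partners and targets of TCF and LEF factors, whose median log2 change was 0.00. At an unadjusted p under 0.05, 1 was higher and 2 were lower, and edgeR and DESeq2 on recovered units also called none. After correction for transcript GC content, 1 was called higher. Without DON library 1, limma called 1 higher and 1 lower. *Axin2*, a common target of Wnt signalling through TCF and LEF factors, had 1738.7, 1847.2 and 1787.2 normalized counts with DON and 1819.3, 1549.5 and 1536.2 in controls (log2 0.14, limma adjusted p = 0.390). *Tcf7l2*, another gene of the family, had 173.1, 119.5 and 121.6 with DON and 201.4, 121.8 and 196.9 in controls, with overlap (log2 -0.31, adjusted p = 0.485).

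*Id3* (ENSMUSG00000007872.3, chromosome 4, 136143497 to 136145755, plus strand) had 701.0, 817.9 and 855.1 normalized counts with DON, against 786.0, 779.1 and 634.8 in controls. The groups overlapped, and the interval of the log2 change of 0.11 was wide (-0.18 to 0.41, limma adjusted p = 0.628). *Id2*, which encodes the other main inhibitor of E proteins in T cells, had 4064.5, 4182.3 and 2812.4 with DON and 5288.6, 5478.0 and 5300.8 in controls. Its groups did not overlap, though it missed the threshold (log2 -0.56, adjusted p = 0.0604). Per kilobase of exon, *Id3* stood at 0.305 ± 0.0956 times *Id2* with DON and 0.186 ± 0.0206 times *Id2* in controls (SD, n = 3 each).

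Of 11 tested genes for ID proteins, E proteins and related factors, 3 fell and 8 were not called, with a median log2 change of -0.56. *Egr1* and *Egr3* encode factors that antigen receptor signals induce and that activate *Id3* in developing T cells. *Egr1* had 544.2, 586.0 and 617.0 normalized counts with DON and 968.8, 990.9 and 901.4 in controls (log2 -0.71, limma adjusted p = 0.00833). *Egr3* had 238.1, 289.0 and 339.4 with DON and 847.5, 609.0 and 657.3 in controls (log2 -1.28, adjusted p = 0.00859). *Tcf4*, which encodes the E protein E2-2 and is also expressed in B cells and plasmacytoid dendritic cells, had 764.1, 529.8 and 466.0 with DON and 1174.1, 1199.4 and 1130.1 in controls (log2 -1.02, adjusted p = 0.0187). The *Tcf4* call was lost without DON library 2, DON library 3 or any 1 control library.

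Of 30 further genes of T cell quiescence, 1 rose, 2 fell and 27 were not called, with a median log2 change of 0.01. *Tsc22d3*, the glucocorticoid-induced leucine zipper gene, had 5803.2, 6339.9 and 6042.3 normalized counts with DON and 4203.5, 4255.5 and 4879.3 in controls (log2 0.45, limma adjusted p = 0.0202). *Igfbp4*, an insulin-like growth factor binding protein that marks naive T cells, had 231.4, 297.0 and 283.7 with DON and 551.3, 558.5 and 594.8 in controls (log2 -1.07, adjusted p = 0.00537). *Bcl11b*, a T cell identity factor, had 12623.0, 12711.8 and 13079.4 with DON and 16128.9, 15887.4 and 15502.4 in controls (log2 -0.31, adjusted p = 0.0168). The *Tsc22d3* call was lost without DON library 2, DON library 3, control library 1 or control library 2. The *Bcl11b* call was lost without DON library 2, DON library 3 or any 1 control library. Without DON library 1, limma called 7 of the 30 higher and 5 lower, beside 1125 higher and 2126 lower among all 16884 genes then tested.

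Levels of different genes were compared per length, in recovered units per kilobase of exon, scaled to 1000000 units per library. With DON the order was *Tcf7* (836 ± 41.3), *Klf2* (472 ± 40.5), *Ccr7* (320 ± 21.8), *Il7r* (247 ± 25.7), *S1pr1* (234 ± 10.5), *Lef1* (88.2 ± 5.64), *Foxo1* (34.0 ± 0.867), *Id3* (12.1 ± 1.40) and *Bach2* (10.6 ± 2.48). In controls it was *Tcf7* (726 ± 17.9), *Klf2* (347 ± 12.4), *Il7r* (299 ± 8.01), *Ccr7* (275 ± 9.88), *S1pr1* (252 ± 6.22), *Lef1* (78.4 ± 3.34), *Bach2* (33.9 ± 1.12), *Foxo1* (33.0 ± 1.44) and *Id3* (11.1 ± 1.28; SD, n = 3 for each value). With DON, the libraries of *Il7r* overlapped those of *S1pr1*, and the libraries of *Id3* those of *Bach2*. In controls, the libraries of *Bach2* overlapped those of *Foxo1*. *Bach2* thus stood beside *Id3* at the foot of the order with DON and beside *Foxo1* in controls.

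**Figure D4:**
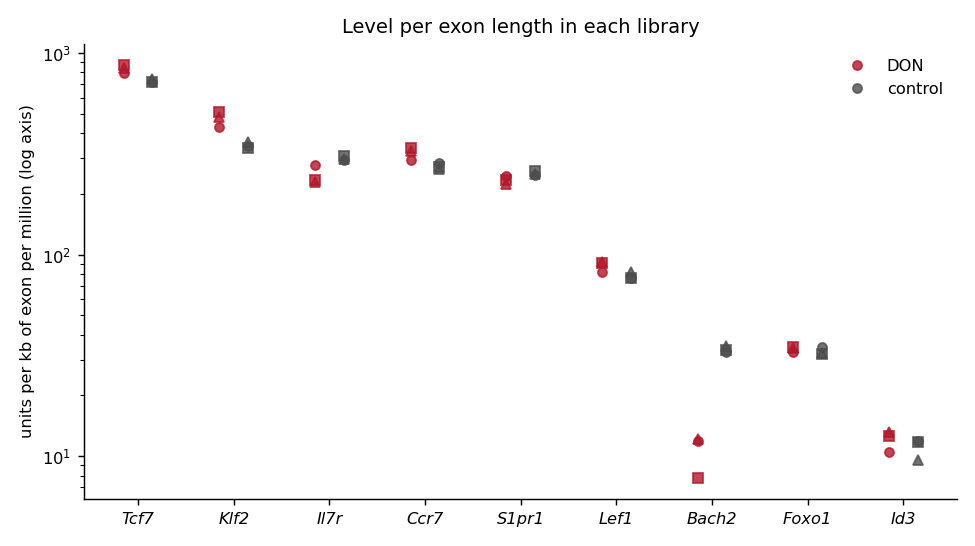
Level of the 9 genes per length (recovered units per kilobase of exon, scaled to 1000000 units per library, log axis), one point per library, with DON in red and control in grey. *Bach2* lies beside *Id3* with DON (10.6 and 12.1) and beside *Foxo1* in controls (33.9 and 33.0).

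DON library 1 was the DON library nearest to the control mean in all 7 genes whose groups did not overlap, by a narrow margin over DON library 3 in *Bach2*. Across all genes tested this held for 2879 of 5388 such genes, or 53.4%. Without DON library 1, limma called 4 of the 9 genes higher and 3 lower. *Tcf7* (adjusted p = 0.00589), *Lef1* (0.0210), *Ccr7* (0.00992), *S1pr1* (0.0308) and *Il7r* (0.000556) then passed the threshold beside *Bach2* and *Klf2*. Genes called among all tested numbered 1125 higher and 2126 lower of 16884 without that library, against 395 and 713 of 17185 with it. The counts given above for gene lists without DON library 1 have this larger background.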

How the data were processed

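The 6 libraries were made from total RNA (Trizol) with a VAHTS mRNA-seq v2 kit, per the labels' protocols. The submitters' processing notes name HISAT2, StringTie, mm8 and mm10, with no role or version. Per the file headers, the deposited columns are normalized counts, a signal that is not raw counts because 1 factor per library had divided them. All values above 0 were whole multiples of 1 step per library (100% within 0.001), which gave recovered units. Units may not be single reads, since each library had 854 to 903 genes at 4 units and only 382 to 446 at 3 units. Gene positions are those of the files, and 49909 of 52550 equalled GENCODE M21 (GRCm38).

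Genes with 1 symbol were added together. A two-sided limma 3.58.1 model (R 4.3.3; lmFit and trended eBayes) was fitted to log2(normalized count + 1) for the 17185 genes reaching 10 normalized counts in 3 or more libraries, 3 per group, with Benjamini-Hochberg adjustment over all of them and a threshold of 0.05. Fold changes on this scale understate the change of low genes. The fit was also run on simulated counts, with the same spread setting for every gene and larger changes than most reported here. That run does not bear on calls of small changes. Levels per length are recovered units per kilobase of annotated exon (GENCODE M21) scaled to 1000000 units per library. Alternatives were pseudocount 0.1, no filter, a minimum mean of 100, TMM, quantile normalization, equal totals, no variance trend, edgeR 4.0.16 (units, and units divided by 4), DESeq2 1.42.0, a replicate block, a correction for the GC content of the longest transcript (robust loess, span 0.5, known for 99.8% of tested genes), each library left out, and DON libraries 2 and 3 left out together.

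The members, gene lists and tests were chosen with earlier results of these data known. Named genes were the members, up to 4 called genes from each of 7 pathway lists, taken by adjusted p, 14 genes taken whatever their values, and the 5 genes nearest to *Bach2*. Antisense and overlapping genes were added from the annotation. *Trac* was added from the αβ T cell markers, and the genes given beside *Trdc* from the γδ T cell markers. B cell, neutrophil and macrophage marker lists are given by their counts. Some genes that the rule took are counted but not reported here by name. Promoter windows are from RefSeq (GRCm38.p6).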

Additional observations from a re-analysis of the deposited data

How the results depend on the processing

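Over 19 alternatives, *Bach2* was called lower in all 19 (log2 -1.83 to -1.50). The *Klf2* call was lost in 7: with no variance trend (adjusted p = 0.0883), with the replicate block (0.0582), without DON libraries 2 and 3 together (0.0550), and without DON library 3 or any 1 control library (0.0520 to 0.0684). Without a variance trend, with the replicate block, or without DON libraries 2 and 3, 0 of the 9 genes were called higher by limma. In the last of these, DON had 1 library, taken to vary as the control libraries do. DESeq2 called 2 lower, adding *Il7r*. Leaving out 1 library at a time gave 0 to 4 genes higher and 1 to 3 lower. The sign changed, without a call, for *Il7r* (0.022) and *Foxo1* (-0.0032) after GC correction, and for *Id3* (-0.058) without DON libraries 2 and 3. The causes were not tested.

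Over all genes, 395 were called higher and 713 lower. The count called higher was 220 without a filter and 626 after GC correction. The counts higher and lower were 72 and 291 without a variance trend, 790 and 1348 with DESeq2, and 67 and 321 without DON libraries 2 and 3. With 1 library left out they ranged from 69 to 1125 and from 198 to 2126, the highest of both without DON library 1. Of the 17 pathway genes called, 5 kept their call with each single library left out (*Igfbp4*, *Irf4*, *Il2ra*, *Egr1* and *Egr3*), and *Igfbp4*, *Il2ra* and *Egr3* kept it under all 19 alternatives.

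DON and control samples sharing a replicate number did not deviate together (r = -0.0559, -0.0545 and -0.0520), while those with different numbers gave r from 0.0108 to 0.04. The labels do not say whether the numbers pair them, and values from 3 libraries a group cannot settle it. With the replicate block, 48 genes were called higher and 240 lower, and of the 9 genes 0 were called higher and 1 lower. With 3 libraries a group, the interval of *Id3*, the lowest of the 9 genes in normalized counts, still held changes from -0.18 to 0.41 on the log2 scale.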

Other observations

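In 3 genes of the lists, picked after their values were seen, 1 library stood well apart from the others of its group. *Foxp1*, a quiescence factor, had 7426.1, 7552.0 and 8295.5 normalized counts with DON and 8045.4, 16063.0 and 8648.0 in controls. *Vsir*, the gene of the checkpoint receptor VISTA, had 6389.4, 6516.5 and 12103.8 with DON and 5917.2, 5484.5 and 5410.5 in controls. *Akt2* had 5360.4, 5673.6 and 5802.2 with DON and 3043.2, 5121.3 and 5295.6 in controls. Limma called none of these genes (adjusted p = 0.303, 0.207 and 0.283).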
